A study of Mus musculus with 7 samples.

Results

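Germline and meiosis genes were examined in lymphoma cell lines that carry or lack Smchd1. The 36 genes, of 27179 in the count tables, were taken from a list of symbols matched to Entrez identifiers, with no filter on low counts. They encode parts of the synaptonemal complex (6 genes), meiotic cohesin (4), the chromosome axis and recombination machinery (7), the piRNA pathway (12), regulators of germ cell RNA and meiotic entry (3) and other testis proteins (4). RNA-seq libraries came from 7 cell lines, each derived from lymphoma at end stage in C57BL/6 males that carried the Eµ-Myc transgene, in which an immunoglobulin enhancer drives Myc in B lineage cells. The 3 wild-type lines kept Smchd1, whose product binds chromatin and helps to keep genes silent, as on the inactive X chromosome. The 4 Smchd1 null lines were homozygous for a mutant allele of Smchd1, which the paper names MD1. Both groups carried the Myc transgene, no line received a treatment, and the ages of the mice were not given. The labels do not state whether the lines of a group came from separate mice, so p-values measure only the spread between these lines.

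Meiosis reduces the chromosome number in germ cells. Homologous chromosomes are held along a cohesin-based axis, broken by SPO11 at sites marked by PRDM9, repaired with DMC1, and joined by the synaptonemal complex. A separate system, the piRNA pathway, uses PIWI proteins and Tudor domain proteins to silence transposons in germ cells. In somatic cells many of these genes are silent, and DNA methylation and Polycomb-type repression of their promoters are well known at several of them.

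Total counts ran from 3626853 in wild-type replicate 1 to 7519549 in Smchd1 null replicate 4. A floor of 3 counts, taken as the smallest level a library can show, equals 0.399 to 0.827 CPM, the count scaled to the total count of the library. The mean level of Smchd1 itself in wild-type lines was 232 CPM (SD 14.8, n = 3), against 26.5 CPM (SD 2.85, n = 4) in Smchd1 null lines (exact permutation test, two-sided, p = 0.0286, the smallest that 3 against 4 samples allow). Wild-type replicate 1 was the only library of batch 1 and the only one read single-end, and it stood apart from its group, as did Smchd1 null replicate 4. Of 10 B lineage markers, 6 were on in all 7 libraries, among them Cd79a, Cd79b, Ebf1 and Pax5. The number on was 7, 9 and 9 in wild-type replicates 1 to 3 and 6, 8, 8 and 9 in Smchd1 null replicates 1 to 4. In Smchd1 null replicate 4, however, the summed level of 10 B lineage markers was 513 CPM, against 1102 to 1601 CPM in the other 6. No T or NK cell marker was on in any library. Wild-type replicates 2 and 3 were closely alike, at a leading log2 fold change distance of 1.26, although they differed by more than sampling noise.

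The promoters shown here belong to 4 genes on which the results turn. Each is 250 bases before to 50 bases after a listed start site of the gene (GRCm38.p6, the same build as mm10), written 5′ to 3′ along the gene. The start site used for Brdt is not the first base of its RefSeq gene span. That base, 107331116, lies further upstream within the window. Mei4, which is not among the 36 genes, is shown because it had reads only in the Smchd1 null lines. Brdt was the member nearest to a difference between the groups, whereas Smc1b and Tdrkh were each on in 1 library. Capitals mark TCCCGC, a core letter string of E2F sites, or CACGTG, the E-box letters, on either strand. Mei4 lies at chr9:81863420-81863719 on the plus strand, Brdt at chr5:107330944-107331243 on the plus strand, Smc1b at chr15:85131908-85132207 on the minus strand and Tdrkh at chr3:94412994-94413293 on the plus strand.
Mei4: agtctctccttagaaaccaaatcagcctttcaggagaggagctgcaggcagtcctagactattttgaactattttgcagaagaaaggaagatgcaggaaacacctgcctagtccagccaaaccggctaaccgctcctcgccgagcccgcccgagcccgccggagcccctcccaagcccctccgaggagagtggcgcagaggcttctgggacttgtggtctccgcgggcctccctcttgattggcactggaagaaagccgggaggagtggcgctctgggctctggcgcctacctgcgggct
Brdt: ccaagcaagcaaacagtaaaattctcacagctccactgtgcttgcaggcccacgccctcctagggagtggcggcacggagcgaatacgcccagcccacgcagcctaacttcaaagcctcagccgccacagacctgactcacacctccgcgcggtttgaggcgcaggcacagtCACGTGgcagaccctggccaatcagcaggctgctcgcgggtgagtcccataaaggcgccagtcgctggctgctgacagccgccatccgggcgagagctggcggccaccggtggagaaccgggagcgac
Smc1b: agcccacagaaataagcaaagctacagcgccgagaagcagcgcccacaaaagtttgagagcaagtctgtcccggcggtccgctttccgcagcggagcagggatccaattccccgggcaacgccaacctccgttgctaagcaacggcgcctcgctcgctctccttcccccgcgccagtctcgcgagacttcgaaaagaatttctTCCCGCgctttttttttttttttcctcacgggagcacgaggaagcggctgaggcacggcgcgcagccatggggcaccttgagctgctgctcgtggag
Tdrkh: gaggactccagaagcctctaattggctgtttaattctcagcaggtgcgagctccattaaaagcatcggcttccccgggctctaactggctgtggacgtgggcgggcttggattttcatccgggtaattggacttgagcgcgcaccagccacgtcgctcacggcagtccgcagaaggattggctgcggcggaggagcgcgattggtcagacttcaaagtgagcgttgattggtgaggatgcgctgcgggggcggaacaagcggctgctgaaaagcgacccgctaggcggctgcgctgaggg
The Brdt window holds 1 CACGTG and the Smc1b window 1 TCCCGC, and the windows of Mei4 and Tdrkh hold neither string. All 4 are rich in CG dinucleotides, with 16 in Mei4, 23 in Brdt, 29 in Smc1b and 25 in Tdrkh, against a median of 8 over all genes with a promoter, taking the highest count where a gene has several. RefSeq promoters were found for 33 of the 36 members. Of these, 15 (45.5%) held TCCCGC and 13 (39.4%) CACGTG, against 22.05% and 8.09% of 27025 genes, where a gene with several promoters was counted once if any of them matched. Of the 17 members with no read in any library, 7 held TCCCGC and 6 CACGTG. Among the 9 members with a promoter that were on in at least 1 library, 6 held TCCCGC and 4 CACGTG. Both strings contain CG, and the median CG count was 19 over the members against 8 over all genes. The shares were not compared at equal CG count.

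Most germline genes were off in these lines whatever the genotype. Of the 36 members, 17 had no read in any of the 7 libraries (47.2%, against 37.9% of all genes). They were the synaptonemal complex genes Syce1, Syce3, Sycp1 and Sycp2, the cohesin genes Rec8 and Rad21l, the axis genes Hormad1 and Hormad2, the recombinase Dmc1, the piRNA pathway genes Asz1, Mael, Mov10l1, Tdrd1 and Tdrd5, the meiotic entry gene Stra8, and Slc25a31 and Tex101. With 43518807 counts in all, a sum of 0 allows up to 0.0689 CPM for the pooled libraries, counting error only. A further 9 members (Dazl, Meioc, Msh4, Spo11, Stag3, Tex15, Piwil1, Tdrd12 and Tdrd9) had at most 3 counts in a library and were on in none. A gene is called on in a library at 0.5 CPM or more with at least 3 counts. The remaining 10 members were on in at least 1 library, and only Syce2, Prdm9, Msh5 and Brdt were on in all 7 (11.1% of members, against 38.2% of all genes).

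The number of members on was 6, 5 and 6 in wild-type replicates 1 to 3 and 7, 6, 4 and 9 in Smchd1 null replicates 1 to 4. The means were 5.67 ± 0.577 (SD, n = 3) and 6.5 ± 2.08 (SD, n = 4), and the ranges of the groups overlapped. Without Smchd1 null replicate 4, which had the most members on, the mean of that group was 5.67 ± 1.53 (SD, n = 3). This library also had the most genes on of any kind, 46.1% of the table against 42.9% to 44.3% in the other 6. Prdm9, Msh5 and Syce2 together held 77.2% to 93.4% of the reads of the members in 6 libraries and 49.4% in Smchd1 null replicate 4, where Tdrkh held most of the rest.

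The filter of the study, at least 0.5 CPM in 3 or more samples, was passed by 7 members (19.4%, against 45.3% of all genes). With voom and sample weights, none of the 7 was differentially expressed (DE) between the groups at a false discovery rate (FDR) under 0.05 in limma, where 11.9% of the 12303 genes tested were DE. The count was also 0 with voom alone and with the quasi-likelihood test of edgeR, which each called 0.0975% of genes, and with DESeq2, which called 3.12%, although DESeq2 gave no adjusted value for Ddx4 and Sycp3. One member, Brdt, had an unadjusted p under 0.05, both in limma (0.0142) and in edgeR. The median log2 fold change of the 7 was -0.05, beside -0.01 over all genes tested. The other 29 members failed the filter and could not be tested with it. Without any filter, 19 members entered the fit and again 0 were DE.

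Among the synaptonemal complex genes, Syce2 and Sycp3 had reads. Syce2 (Entrez 71846, GRCm38 chromosome 8, 84872111 to 84887446), a component of the central element, reached the highest level per length of any member, 81.1 RPKM (CPM per kilobase of gene length) in wild-type replicate 1. Its level in wild-type replicates 1 to 3 was 111, 25.1 and 17.7 CPM. In Smchd1 null replicates 1 to 4 it was 6.52, 6.1, 31 and 21 CPM. The lowest values were thus those of Smchd1 null replicates 1 and 2, while replicates 3 and 4 lay within the wild-type range. The log2 fold change was -1.18 (95% interval -2.37 to 0.02, limma FDR 0.164), and it moved to -0.41 and -0.31 without Smchd1 null replicates 1 and 2 and to -1.98 and -2.31 without wild-type replicates 2 and 3. Syce2 overlaps Gcdh in the annotation, and counts of the pair cannot be fully told apart because the counting was not stated to use strand. Sycp3, a protein of the lateral elements, reached at most 6 counts in a library. Its counts were 0, 5 and 3 in wild-type and 4, 1, 0 and 6 in Smchd1 null replicates, and its log2 fold change of -1.27 had a 95% interval from -3.07 to 0.52 (limma FDR 0.299). The mean level in wild-type lines was 0.42 CPM (SD 0.41, n = 3), close to the 0.388 CPM of Smchd1 null lines (SD 0.371, n = 4), and the log2 fold change moved to -0.44 without wild-type replicate 3, -0.71 without Smchd1 null replicate 3, -0.39 with voom alone and -0.19 in edgeR. Sycp3 overlaps Chpt1.

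Of the meiotic cohesin subunits, Smc1b alone was on, and in a single line. Smc1b (Entrez 140557, chromosome 15, 85064689 to 85131957) encodes the meiotic form of SMC1. It had 119 counts, or 32.8 CPM, in wild-type replicate 1. In each of the other 6 libraries it had 0 to 2 counts. The gene lies 103 bases from Ribc2, which had 4 counts in wild-type replicate 1 and 0 in all others, and it overlaps Fam118a, which had 140 to 496 counts in every library. Since wild-type replicate 1 was also the only library of batch 1, the line and the batch cannot be told apart. Of 4 fibroblast markers, 3 were on in the same library and 1 had no count in any library. Among them, Col1a1 and Col1a2 had 20 and 14 counts there and at most 2 in any other. Their part in the Smc1b value was not tested. The partners of SMC1B in meiotic cohesin, REC8, RAD21L and STAG3, had no such rise, with 0 counts of Rec8 and Rad21l and 1 count of Stag3 in wild-type replicate 1.

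Within the axis and recombination group, Prdm9 and Msh5 were on in every library. Prdm9 (Entrez 213389, chromosome 17, 15543072 to 15564374) encodes the histone methyltransferase that places meiotic recombination hotspots. It was the most even member, at 12.1, 13.8 and 16.4 CPM in wild-type and 11.6, 17, 11.7 and 15.4 CPM in Smchd1 null replicates. The group means were nearly equal (14.1 CPM, SD 2.16, n = 3 in wild-type, 13.9 CPM, SD 2.73, n = 4 in Smchd1 null), and the values overlapped. The log2 fold change was -0.10 with a 95% interval of -0.52 to 0.32 (limma FDR 0.742), the narrowest interval of the 7 members. Msh5 (Entrez 17687, chromosome 17, 35028605 to 35046997), a MutS homologue that stabilises crossover intermediates, was less even. Its level was 7.72, 5.08 and 6.01 CPM in wild-type and 2.52, 12.7, 2.93 and 7.85 CPM in Smchd1 null replicates. Both the lowest and the highest values were in the Smchd1 null group, and the log2 fold change was 0.00 (95% interval -1.14 to 1.14, limma FDR 0.997). Sapcd1, only 48 bases away, had its highest count (107) in the same library as Msh5, Smchd1 null replicate 2, and its lowest (18) in replicate 1, where Msh5 was also lowest. The partner of MSH5, MSH4, had at most 2 counts in a library, and Spo11 had 1 count in all 7 libraries together.

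**Figure D1:**
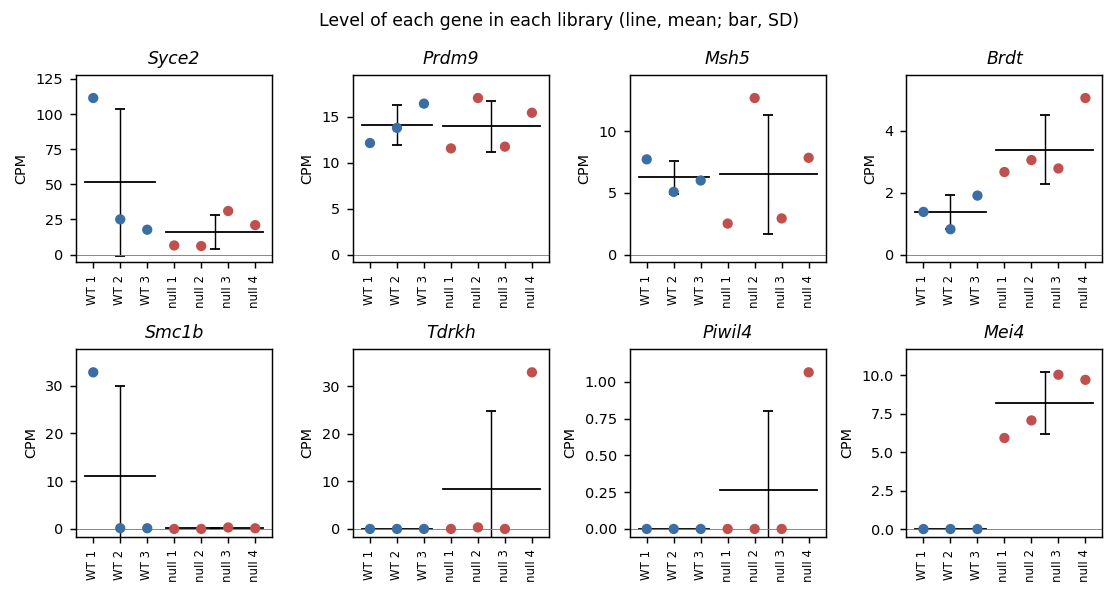
CPM of 8 genes in each library (blue, wild-type; red, Smchd1 null), with the mean of each group as a line and its SD as a bar, cut off just under 0. Prdm9 was even across all 7 libraries, Smc1b, Tdrkh and Piwil4 were on in 1 library each, every Smchd1 null value of Brdt lay above every wild-type value, and Mei4 had 0 CPM in all 3 wild-type libraries.

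Of the 12 piRNA pathway genes, 4 were on somewhere, and each was highest in Smchd1 null replicate 4. Tdrkh (Entrez 72634, chromosome 3, 94413243 to 94434854) encodes a mitochondrial Tudor domain protein that takes part in piRNA trimming. It had 248 counts in Smchd1 null replicate 4, or 33 CPM, 2 counts in replicate 2 and 0 in the other 5 libraries. Oaz3, which overlaps it, had 8 counts in the same library and 0 elsewhere, whereas Mrpl9, 8300 bases away, had 735 to 1333 counts in all. Piwil4, a PIWI protein of fetal male germ cells, had 8 counts (1.06 CPM) in Smchd1 null replicate 4 and 0 in every other library. Its neighbour Fut4, 7787 bases away, had 293 counts there and 4 to 21 elsewhere. Piwil2, another PIWI protein, was at 1.38, 0.328 and 1.03 CPM in wild-type and 1.04, 0.803, 0.154 and 2.93 CPM in Smchd1 null replicates. The RNA helicase gene Ddx4, a general germ cell marker, was at 0.276, 0.328 and 1.17 CPM in wild-type and 0.592, 0.642, 0.309 and 1.73 CPM in Smchd1 null replicates. For both genes the groups overlapped, with log2 fold changes of 0.21 (95% interval -1.44 to 1.87, limma FDR 0.867) for Piwil2 and -0.05 (-1.56 to 1.47, limma FDR 0.969) for Ddx4. Counts of these genes were only 1 to 22 per library. In the same Smchd1 null replicate 4, the summed level of 10 B lineage markers was at its lowest, although 9 of them were on. Sox9, one of 6 markers of testis somatic cells, had 98 counts there against 0 elsewhere. Of the other 5, Cyp17a1 was at 0 in all libraries, Gata4 had 5 counts there, and Amh, Insl3 and Star had reads in both groups. The summed level of the 6 was 21.3 CPM in that library and 3.85 to 10.5 CPM in the others. The 4 endothelial markers summed to 223 CPM there, mostly Pecam1, with Kdr at 0, and to 47.7 to 96.0 CPM in the other 6. The part of all these markers in the Tdrkh and Piwil4 values was not tested.

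Brdt (Entrez 114642, chromosome 5, 107331116 to 107387061), the testis member of the BET family that binds acetylated histones, was the only tested member whose groups did not overlap. It was at 1.38, 0.82 and 1.91 CPM in wild-type and 2.67, 3.05, 2.78 and 5.05 CPM in Smchd1 null replicates. All 4 Smchd1 null lines were therefore above all 3 wild-type lines. The same was true of 6.35% of the genes tested, and of 13.2% without overlap in either direction. The log2 fold change was 1.23 (standard error 0.40, 95% interval 0.32 to 2.14), and the limma FDR of 0.0774 missed the threshold. It was 0.101 without Smchd1 null replicate 4 and 0.113 without wild-type replicate 1, that is, within batch 2. Without wild-type replicate 2 or 3 it was 0.927 or 0.816. The counts behind the level were 5, 5 and 13 in wild-type and 18, 19, 18 and 38 in Smchd1 null replicates. None of the regulators of germ cell entry was on, as Dazl, an RNA-binding protein of germ cells, had 0 or 1 counts per library, Meioc at most 3 and Stra8 none.

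**Figure D2:**
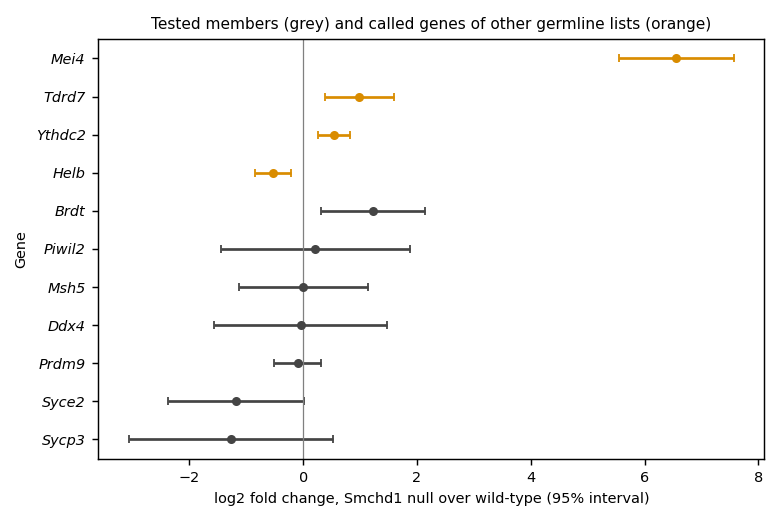
Log2 fold change, Smchd1 null over wild-type, with 95% intervals in voom with sample weights for the 7 tested members (grey) and the 4 DE genes of the other germline lists (orange). Of the grey intervals only that of Brdt (0.32 to 2.14) excludes 0, and Mei4 stands apart at 6.56.

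Other germline genes were described from 4 further lists, written from general knowledge, of which 130 genes were in the files. Of these, 63 had no read, 42 were on in at least 1 library and 19 in all 7. A test was possible for 29, and 4 were DE, 3 higher and 1 lower in Smchd1 null lines, against 5.06% and 6.85% of all genes tested in those directions. The list of meiotic recombination and homologue pairing genes had 1 higher and 1 lower of 18 tested. The piRNA list had 1 higher of 6, the germ cell specification list 1 higher of 3, and the spermatid and oocyte list 0 of 2, with Gapdhs and Crem at limma FDRs of 0.867 and 0.954. The median log2 fold change of the 29 was 0.05.

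The clearest of them was Mei4 (Entrez 75033, chromosome 9, 81863670 to 82206007), a partner of SPO11 needed to form meiotic breaks. It had 0 counts in all 3 wild-type lines and 40, 44, 65 and 73 counts in Smchd1 null replicates 1 to 4. These equal 5.92, 7.07, 10 and 9.71 CPM, a mean of 8.18 ± 2.01 CPM (SD, n = 4). The floor of 3 counts had a mean of 0.586 CPM over the wild-type libraries, and the mean of the Smchd1 null lines was about 14-fold above it. This ratio of means is not a bound for each library, since the floor of wild-type replicate 1 was 0.827 CPM. In all, 9 genes of 27179 (0.0331%) had 0 counts in every wild-type and at least 30 in every Smchd1 null library. The other 8 were Elavl2, Fzd10, Garem1, Isl1, Nectin3, Nfib, Nr2f2 and Peg12, none of which is in the lists of germline genes used here. Genes with no read in any library, 37.9% of all, could not be among them. The cutoff of 30 was not planned, and Mei4 met it by its own counts, so the share is no test of Mei4. Its FDR was 0.000958 in limma with sample weights, 0.027 with voom alone, 0.0418 in edgeR and 2.3e-07 in DESeq2. It was 0.00156 without Smchd1 null replicate 4 and 0.00215 without wild-type replicate 1. The call was lost without wild-type replicate 2 (0.588) or 3 (0.534) and with this pair summed into 1 sample (0.471). The fitted log2 fold change was 6.25, 6.16 and 6.69 in these fits against 6.56 with all samples, and every wild-type library was at 0. Within 500 kb of Mei4 the files held D430036J16Rik and Htr1b, and both had 0 counts in all 7 libraries. Of the other genes that act with MEI4 to form breaks, Rec114 had 2 to 6 counts in each library and Spo11 was off.

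The other 3 DE genes of these lists changed by less. Tdrd7, a Tudor domain protein of germ cells that also acts in the lens, was at 4.96, 7.55 and 10.3 CPM in wild-type and 15.3, 17, 14.7 and 45.9 CPM in Smchd1 null replicates. It rose without overlap of the groups, as did 6.35% of all genes tested (log2 fold change 0.99, limma FDR 0.0478). Ythdc2, an RNA helicase with which MEIOC acts, rose by 0.53 on the log2 scale (limma FDR 0.0315), and the DNA helicase Helb fell by 0.53 (limma FDR 0.0423). Neither Ythdc2 nor Helb is restricted to germ cells. All 3 calls were lost with voom alone (limma FDR 0.571 for Ythdc2, 0.513 for Helb and 0.405 for Tdrd7). Without wild-type replicate 2 the limma FDRs were 0.899, 0.943 and 0.899 in the same order, and without replicate 3 they were 0.866, 0.929 and 0.815. Without these replicates in turn, the log2 fold change of Tdrd7 was 1.19 and 1.45, that of Ythdc2 0.45 and 0.36, and that of Helb -0.31 and -0.25.

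Other genes of these lists differed in how even they were between lines, and some were high in a single line. Zcwpw1, the reader of the histone marks made by PRDM9, had the highest level of the recombination list, at 408, 166 and 133 CPM in wild-type and 17.5, 55.9, 204 and 24.6 CPM in Smchd1 null replicates (log2 fold change -1.63, limma FDR 0.095). Without Smchd1 null replicate 3, the highest of its group, the log2 fold change was -2.25 and passed the threshold (limma FDR 0.0271), and without replicate 1 it was -0.63 (limma FDR 0.491). Sgo2a and Trip13, which also act in mitosis, were at 55.1 to 79.4 and 43.6 to 78.6 CPM. In Smchd1 null replicate 4, Crem, listed for its role in spermatids, was at 102 CPM against 2.76 to 7.88 CPM elsewhere. The X-linked gene Xlr, which has close copies, had 483 counts there against 0 to 3. Sohlh1, a spermatogonial factor, had 8 counts in this library and 0 elsewhere. Whether Crem and Xlr are restricted to germ cells was not examined. Gfra1, a receptor of spermatogonial stem cells, was at 49.1, 21.8 and 33 CPM in wild-type and 1.33, 15.4, 5.56 and 0 CPM in Smchd1 null replicates. Its groups did not overlap, as was true in this direction of 6.85% of all genes tested, and its limma FDR of 0.083 missed the threshold. Tdrd3 and Mybl1 of the piRNA list were at 21.5 to 31.3 and 4.63 to 9.03 CPM. In the spermatid and oocyte list, Gapdhs reached 7.23 CPM and the oocyte growth factor gene Gdf9 0.74 CPM, and the protamine gene Prm1 had at most 4 counts in any library.

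Several members have relatives that also work outside the germline, and these were on throughout. Levels of genes were compared per length, as RPKM. For 15 pairs of a member and a relative, the relative was higher in all 7 libraries in every pair. Smc1a was at 79.8 to 98.9 RPKM, against at most 8.12 RPKM for Smc1b, and even in wild-type replicate 1 exceeded it by 11.7 times. The mitotic kleisin Rad21 was at 125 to 181 RPKM where Rec8 and Rad21l had no read. Msh6 was at 55.8 to 72.1 RPKM and Msh5 at 0.87 to 4.38 RPKM. Brd2 and Brd3 ran from 19.3 to 109 RPKM, and Brdt reached 1.01 RPKM at most. Of the 14 relatives, 2 were DE, against 11.9% of all genes tested. Tdrd7 was higher, which is the same call as that counted in the piRNA list, and Mov10 was lower. Mov10, the somatic relative of the piRNA helicase Mov10l1, was at 62.9, 34.6 and 30.3 CPM in wild-type and 13.9, 10.3, 8.03 and 18.6 CPM in Smchd1 null replicates. Its groups did not overlap, as was true in this direction of 6.85% of all genes tested. It fell by 1.57 on the log2 scale (limma FDR 0.0109, 0.156 with voom alone). Without wild-type replicate 2 or 3 its limma FDR was 0.695 or 0.433.

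**Figure D3:**
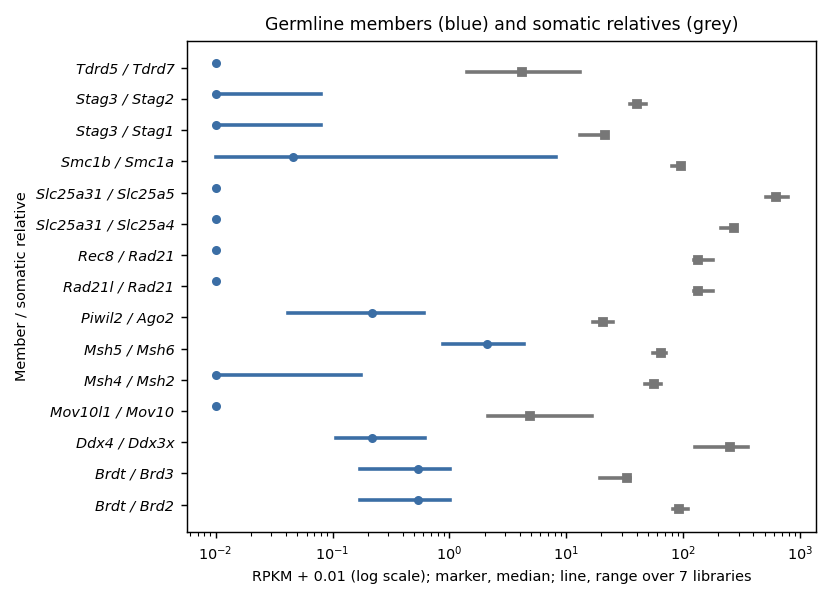
RPKM + 0.01 on a log scale for 15 pairs of a germline member (blue) and a relative that also works outside the germline (grey, labelled somatic). The median is a marker and the range over 7 libraries a line. Tdrd7, one of the relatives, is also in the piRNA list. In every pair the relative lies to the right of the member.

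Regulators that are known to hold germline genes silent in somatic cells were expressed in both groups. All 16 of the list were on in all 7 libraries, among them Dnmt1 at 479 to 694 CPM. In Smchd1 null lines 3 of the 16 were lower and 0 higher, against 6.85% and 5.06% of all genes tested. The DNA methyltransferase Dnmt3a fell by 0.70 on the log2 scale (limma FDR 0.0383), and the PRC1 subunits Pcgf6 and Rnf2 fell by 0.51 (limma FDR 0.0217) and 0.35 (limma FDR 0.0453). None of these 3 was DE with voom alone (limma FDR 0.381, 0.337 and 0.413) or with the replicate number as a block (0.0731, 0.105 and 0.172), and without wild-type replicate 2 their limma FDRs were 0.928, 0.899 and 0.927. Setdb1, a histone H3K9 methyltransferase, was at 1360 CPM in wild-type replicate 1, the library with Smc1b on, and at 152 to 266 CPM in the other 6. E2f6, which binds the TCCCGC string, was uneven, at 0.827, 5.41 and 17.4 CPM in wild-type and 34.2, 21.8, 9.58 and 93.1 CPM in Smchd1 null replicates (limma FDR 0.188).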

How the data were processed

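Reads were aligned by the authors to mm10 with Subread and summarised with featureCounts, and the deposited files hold 1 table of raw counts per library, with the gene length. Treatment of multi-mapping reads and strand is not given in the sources used here. Symbols and positions came from RefSeq (GRCm38.p6) by Entrez identifier, for 25275 of 27179 genes holding 98.2% of counts. Total counts ran from 3626853 to 7519549. Floors of 3 counts cover counting error only, and 95% intervals are those of the limma fit and rest on the spread between lines. CPM and RPKM used the total count.

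The main fit followed the study, with genes at 0.5 CPM or more in 3 or more samples, TMM normalisation, voomWithQualityWeights, lmFit and eBayes in limma (version 3.58.1, R 4.3.3) and Benjamini-Hochberg adjustment over all genes, in place of a count test as the main test. Alternatives were edgeR (version 4.0.16), DESeq2 (version 1.42.0), other weights, filters, normalisation, batch, replicate block, summed replicates and the omission of each replicate. Voom with sample weights, voom alone, edgeR and DESeq2 were tested on simulated data in which all samples were equally variable. The sample weights of the main fit, in contrast, ran from 0.246 (wild-type replicate 1) to 3.78 (wild-type replicate 2). The other fits were not simulated. Members, lists and tests were chosen with earlier results of these data known. Every member is accounted for, and values per library are given for the 8 with the highest CPM, those called, and those on in some libraries with at least 5 CPM in one. From the other lists, DE genes and up to 3 of the highest CPM are named, with paired relatives. Piwil4, Sycp3, the neighbouring genes, Rec114, Sohlh1, Prm1, Xlr, the regulators and the Mei4 promoter were chosen after values were seen. Of the symbols in the other lists, 7 were not matched. Some genes of the marker and relative lists are not reported here and were left out of their sums and counts.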

Additional observations from a re-analysis of the deposited data

Results flagged for a closer look

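In the Smchd1 null group, 16 values were screened for 1 line lying well outside the rest, using its distance from the closest line as a share of the whole range. For normally distributed values chance flags about 1 in 20, or 0.8 of 16, and 4 were found, all in replicate 4. These numbers cannot be compared, since Tdrkh and Piwil4 entered the screen only because they were on in that library. The groups of 3 wild-type lines were not screened. In replicate 4, Tdrkh was at 32.98 CPM, with 0 to 0.321 CPM in the other 3. Tdrd7 was at 45.88 CPM there, against 14.7 to 17 CPM. Brdt was at 5.053 CPM, against 2.67 to 3.05 CPM. Piwil4 was at 1.064 CPM, and since the other 3 lines had 0 counts, any read in 1 line meets the screen. The 4 values come from 1 library, the same in which the summed B lineage markers were lowest, and are not independent of each other.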

How the results depend on the processing

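Of the 36 members, 0 were DE in every alternative run at an FDR of 0.05, and Brdt alone (1 member) at 0.1. The number of DE genes among all those tested was less stable, with 1466 in the fit reported. It was 12 with voom alone and 12 with edgeR, 384 with DESeq2, 493 with block weights, 507 with sample removal, 1 with wild-type replicates 2 and 3 summed, 2797 at an FDR of 0.1, and 1 to 1641 with a replicate left out, the lowest without wild-type replicate 2 or 3. Among the genes tested of the other germline lists, the number DE was 4 in the fit reported, 1 with voom alone, block weights, sample removal, edgeR or DESeq2, 0 with the pair summed, 7 at an FDR of 0.1 and 0 to 3 with a replicate left out. With the replicate number as a block, 222 genes and 1 gene of these lists (Mei4) were DE. Same-numbered lines correlated at -0.151, 0.224 and -0.202, and lines with different numbers at -0.236 to 0.204. So few pairs cannot show whether the numbers pair the samples. The mean number of members on in wild-type lines was 5 at 1 CPM, 3.33 at 5 CPM and 10.7 at 1 count or more, and in Smchd1 null lines 3 at 5 CPM and 11 at 1 count or more. With a replicate left out it ran from 5.5 to 6 and from 5.67 to 7.33. For 4 members that were not DE the log2 fold change turned sign. Msh5 was at -0.0037 with normalisation by relative log expression, -0.013 without a filter, -0.00049 with batch as a covariate, -0.20 with voom alone, -0.27 with block weights, -0.30 with sample removal and -0.12 with the pair summed, and at -0.75 to 0.18 with a replicate left out, the lowest without Smchd1 null replicate 2, while the replicate block gave 0.70. Prdm9 was at 0.082 with the replicate block and -0.29 to 0.11 with a replicate left out. Ddx4 was at 0.11 with the replicate block, 0.32 with voom alone, 0.39 in edgeR, 0.42 in DESeq2, 0.035 with the pair summed and -0.23 to 0.70 with a replicate left out. Piwil2 was at -0.087 with block weights, -0.16 with sample removal, -0.26 with the pair summed and -0.67 to 0.70 with a replicate left out. The cause of these changes was not tested. Members with few reads could not be tested, and differences below 3 counts per library were not detectable.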
